A study of Mus musculus with 5 samples.

Results

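The antiviral interferon-stimulated genes are a set of 39 named mouse genes, taken by symbol from the 32793 gene rows of the count and TPM tables. They comprise 3 interferon receptor chains, 6 RNA or DNA sensors and their activators, and 9 signalling factors. The others are 6 enzymes that are switched on by double-stranded RNA or their relatives, 3 IFIT proteins and 12 other antiviral effectors. All 39 had at least 1 count in some library, and 36 had enough counts to be tested. Bulk RNA of colon spheroids, which are epithelial cultures grown in 3D from colon cells, was sequenced in 5 libraries. The 2 NDD libraries, named RA in the tables, came from mice carrying dimerization-deficient alleles of 2 receptor genes, Notch1DD and Notch2DD, and the 3 WT libraries came from wild-type mice. Both groups were of a mixed background, mostly C57Bl6 with some FVB, and the labels give no age, treatment or time in culture. The labels do not say whether libraries of a group came from separate animals or separate cultures. The p-values thus measure only the spread between these libraries, which may be technical.

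Type I interferons bind the receptor made of Ifnar1 and Ifnar2, and type III interferons bind Ifnlr1 together with Il10rb, a pairing that is most active on epithelial cells. Both receptors activate Stat2, which joins Irf9 in the complex ISGF3. ISGF3 binds a promoter element, the interferon-stimulated response element, and switches on a large set of antiviral genes, among them the RNA sensors and Irf7 that make a cell more ready to produce interferon.

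In the NDD spheroids most of these genes stood at higher levels than in the WT spheroids. Yet edgeR, the main test, called none of them, against 0.0889% of all tested genes. DESeq2 called 5, against 1.5% of all genes called higher. Ifit1, which binds viral RNA that lacks the host cap, had the largest fitted fold of the 36 tested members, with a mean of 6.66 ± 4.16 CPM over the NDD pair (SD, n = 2) against 0.713 ± 0.369 CPM over WT (SD, n = 3). CPM is the usual per-million scaling of a gene's count by its library's size, here adjusted with TMM factors. Ddx60, Oasl2, Oas3, Isg15, Rtp4 and Xaf1 were higher in both NDD libraries than in every WT library, with fitted folds from 2.99 (Xaf1) to 4.53 (Oas3). The 3 receptor chains and the sensor Ddx58 had log2 fold changes of NDD over WT between -0.23 and 0.15. Ifitm3, a membrane protein that blocks virus entry, went the other way, with a mean of 3.03 ± 1.07 CPM over NDD against 7.12 ± 2.36 CPM over WT.

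Of the 36 tested members, 0 were called by edgeR's quasi-likelihood test at an adjusted p below 0.05, a rule that called 0.0889% of the 13501 tested genes. The lowest adjusted p among members in edgeR was 0.208. At an unadjusted p under 0.05, 14 members were higher in NDD (38.9%) against 6.49% of all tested genes, and 1 was lower against 4.68%. The log2 fold change was above 0 in 31 of 36 members (86.1%) against 49.5% of all tested genes. It was over 1 in 14 members (38.9%) against 4.97% of all tested genes. Its median was 0.52 over the members and -0.0047 over all genes. The groups did not overlap, with NDD higher, in 21 members (58.3%) against 15.8% of all tested genes, and with NDD lower in 1 member against 16.2%. DESeq2 called 5 members, all higher in NDD (Ifit1, Ddx60, Oasl2, Irf7 and Rtp4), of 38 for which it gave an adjusted p, against 1.5% of all genes called higher. In counts simulated for this comparison, with 200 genes changed by 2 on the log2 scale, 60 of 258 DESeq2 calls and 21 of 214 edgeR calls were false. Of the 36, Oas2, Ifit3 and Rsad2 reached the filter's minimum in fewer than 2 WT libraries. The other 33 had a median of 0.47, with 28 above 0 and 13 at an unadjusted p under 0.05 and higher, against 6.06% of the genes that met the minimum in the same way. Of these 33, 11 had a log2 fold change over 1 (33.3%, against 3.64% of such genes) and 18 had groups that did not overlap with NDD higher (against 15.1%).

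These numbers depended on single libraries. Without NDD replicate 2 the median of the members was 0.28, while without NDD replicate 1 it was 0.998. In the latter fit the filter, applied anew, kept 38 members instead of 36, so the 2 medians are not over the same genes. Medians by role were also taken over only the members that met the filter's minimum in 2 or more WT libraries. Without NDD replicate 1 these were 0.04 for receptors, 0.89 for sensors and 0.64 for signalling factors. They were 1.44 for the enzymes activated by double-stranded RNA, 2.49 for IFIT genes and 0.54 for other effectors. In the main fit the same medians were, in that order, 0.02, 0.72, 0.45, 0.99, 1.87 and 0.40. These fits leave 1 NDD library, which is assumed to vary like the WT libraries. With the replicate number as a block, edgeR called 0 members against 0.141% of all genes higher. Without WT replicate 1, 2 or 3, the members higher at an unadjusted p under 0.05 numbered 14, 10 and 9. The shares of all genes were 5.46%, 4.76% and 3.08%. Those 3 fits keep both NDD libraries, so they do not show how far the counts rest on NDD replicate 2. With NDD replicate 2 left out, 27 of 36 members were above 0, against 49.5% of all genes.

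**Figure D1:**
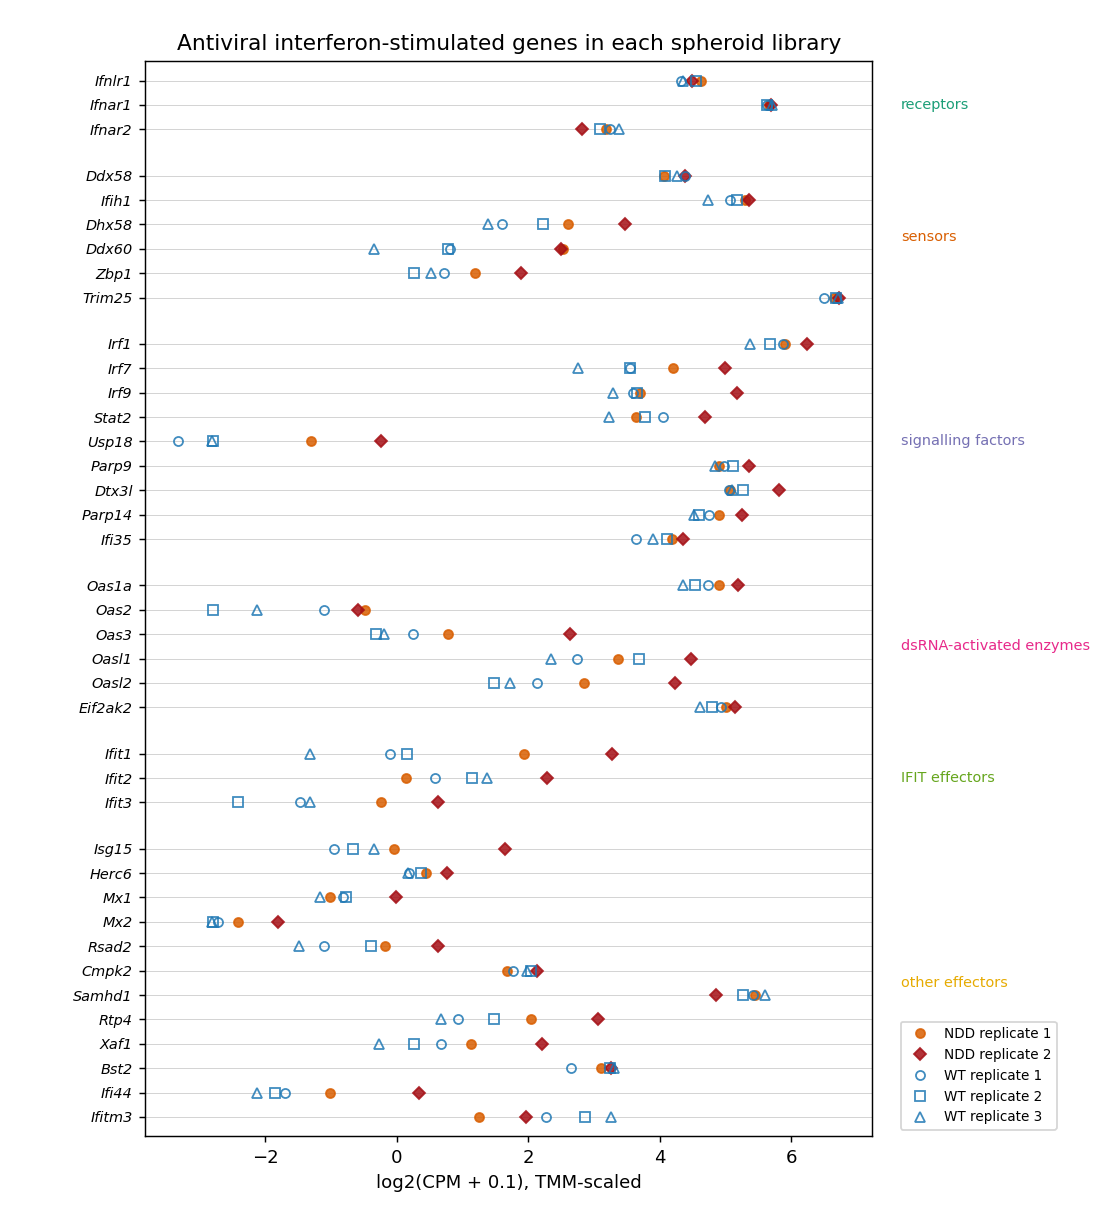
Level of each of the 39 members in each library, as log2(CPM + 0.1) on the horizontal axis, with filled symbols for the 2 NDD and open symbols for the 3 WT libraries. NDD replicate 2 lies at the right in most rows, whereas Ifitm3 is lowest in the NDD libraries.

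**Figure D2:**
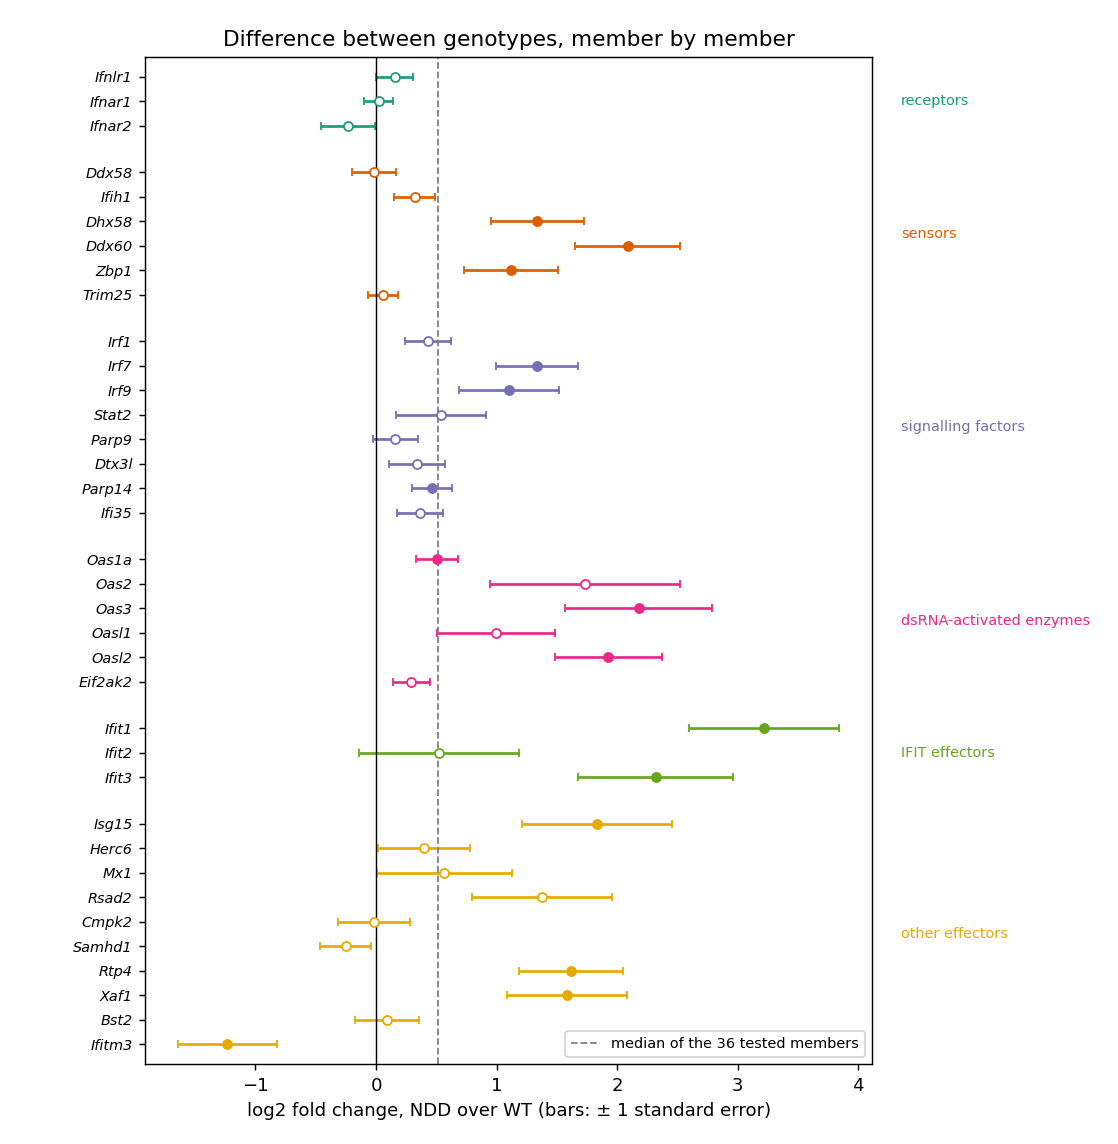
Log2 fold change of NDD over WT for the 36 tested members (horizontal axis), with bars of 1 standard error and filled symbols at an unadjusted p under 0.05. The values run from -1.23 (Ifitm3) to 3.22 (Ifit1) around a median of 0.52.

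Promoter sequences were examined because ISGF3 acts through a known element. RefSeq promoters (GRCm38.p6) were at hand for 30 of the 39 members, and the 250 bases before each start were searched on both strands for GAAANNGAAA, the core of the interferon-stimulated response element. Mx1, Mx2, Oas2, Rtp4, Parp9, Parp14, Usp18, Dhx58 and Zbp1 were not searched. The letters were found in 9 of 30 members (30%) and in 936 of 27025 genes (3.46%). The 9 were Ifit1, Ddx60, Ifit3, Oas3, Isg15, Oas1a, Rsad2, Stat2 and Bst2. Their median log2 fold change was 1.83 (range 0.09 to 3.22), and that of the 20 tested members without the letters was 0.33 (range -1.23 to 1.93). The 9 include Ifit3 and Rsad2, which passed the filter only through NDD, and without them the median of the other 7 was 1.83. Under a mean of 10 CPM, and with those genes left aside, 5 members with the letters had a median of 2.09 (range 0.09 to 3.22) and 7 without had 0.40 (range -1.23 to 1.93). At 10 CPM or more, 2 with the letters had a median of 0.52 and 13 without had 0.32. These few genes are described without a test, and their ranges overlap. A match is a description of the sequence and not a measured binding site. Of the 9, the 4 promoters whose genes had the lowest p are shown 5′ to 3′ on the strand of the gene, with matches in capitals and without bases that the annotation gives to an untranslated region.
Ifit1, chr19:34640744-34640870, plus strand: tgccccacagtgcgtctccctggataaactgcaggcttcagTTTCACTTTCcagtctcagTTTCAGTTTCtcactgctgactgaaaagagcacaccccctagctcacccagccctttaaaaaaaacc
Ddx60, chr8:61927837-61928086, plus strand: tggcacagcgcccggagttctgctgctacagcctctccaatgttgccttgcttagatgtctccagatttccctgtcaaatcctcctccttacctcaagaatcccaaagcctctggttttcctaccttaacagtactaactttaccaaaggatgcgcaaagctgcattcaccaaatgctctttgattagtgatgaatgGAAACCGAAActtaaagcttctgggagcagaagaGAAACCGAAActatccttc
Ifit3, chr19:34583279-34583528, plus strand: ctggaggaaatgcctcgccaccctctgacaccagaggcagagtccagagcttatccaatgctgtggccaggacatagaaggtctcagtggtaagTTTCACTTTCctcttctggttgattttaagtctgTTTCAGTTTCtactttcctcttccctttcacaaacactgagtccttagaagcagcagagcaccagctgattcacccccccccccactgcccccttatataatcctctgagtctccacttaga
Oas3, chr5:120777662-120777909, minus strand: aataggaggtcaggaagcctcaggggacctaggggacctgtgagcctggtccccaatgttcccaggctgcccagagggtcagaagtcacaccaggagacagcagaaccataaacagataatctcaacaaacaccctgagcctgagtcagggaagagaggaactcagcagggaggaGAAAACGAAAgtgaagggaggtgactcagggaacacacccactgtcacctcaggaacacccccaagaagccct
Ifit1 and Ifit3 carry the same pair of matches in the same order, TTTCACTTTC and then TTTCAGTTTC. They begin 104 and 85 bases before the RefSeq start in Ifit1 and 156 and 122 bases before it in Ifit3. In Ifit1 the annotation starts the gene earlier, at 34640871, so the printed bases end short of the RefSeq start. Ddx60 holds GAAACCGAAA at both of its matches, 53 and 19 bases before the start. Isg15 has 3 overlapping matches that begin 78, 72 and 66 bases before the start. The letters TTCNNNGAA, the core of the gamma-activated site, were in 7 of 30 members (23.3%) and in 8.13% of genes. They were found for Irf1 at 90 bases before the start, and for Oas1a and Bst2 besides their other matches. Ifnar2, Samhd1, Eif2ak2 and Ifit2 held them as well.

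The libraries were of like depth, with 19192389 to 23064000 counts in WT and 22372029 and 22122748 in NDD. A gene with no count could still be at up to 3 counts (95% confidence), which is 0.129 to 0.155 CPM by counting error only. The epithelial label was borne out by markers, as the summed level of 10 epithelial markers was 12827 to 14336 CPM in the 5 libraries. Of 14 immune markers, 10 had at most 3 counts in every library, Ptprc had at most 2, and Cd3g, Nkg7 and Cd8a had 0. The summed immune level was 55.4 and 74.3 CPM in NDD and 70.8 to 169 CPM in WT, mostly from Cd14, and without Cd14 it was 2.45 and 4.26 CPM in NDD and 4.81, 6.46 and 8.62 CPM in WT. The fibroblast sum without Pdgfrb was 1.22 to 3.00 CPM, with Lum and Thy1 at 0, and Pdgfrb itself was at 188 and 552 counts in NDD and 80 to 122 counts in WT. The endothelial sum without Vwf was at most 0.187 CPM, with Kdr and Emcn at 0, and Vwf itself was at 40 and 157 counts in NDD and 42 to 63 counts in WT. Pdgfrb and Vwf were thus highest in NDD replicate 2, as most members were, and their part in the result was not tested. NDD replicate 2 differed in another way as well, since 20 proliferation genes summed to 1510 CPM there and to 3343 to 3729 CPM in the other 4 libraries. The summed level of 20 surface colonocyte genes was 11498 and 12040 CPM in NDD and 5762 to 8415 CPM in WT. Gene by gene, all 20 had a log2 fold change above 0, against 49.5% of all tested genes, with a median of 1.52. Of the 20, NDD replicate 2 was highest in 16 (against 33.9% of all tested genes) and WT replicate 3 lowest in 18 (against 26.0%). The part of proliferation and colonocyte maturity in the interferon genes was not tested, and fewer cells of a type cannot be told apart from less RNA per cell in bulk samples. The mutated genes Notch1 and Notch2 were transcribed in both groups, with log2 fold changes of -0.17 (edgeR adjusted p 0.584) and -0.43 (0.505), which says nothing of the alleles themselves.

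Transcripts of the interferons themselves were at or near 0 counts. Of 21 interferon genes, 18 had a count of 0 in all 5 libraries, among them Ifnb1, Ifnl2, Ifnl3 and Ifng, and the other three, Ifnk, Ifne and Ifnz, had at most 2 counts in any library. Transcripts at this level are not detectable at this depth, and a source of interferon outside the cells was not measured. The receptor chains were present in all libraries, with overlapping groups in all 3. Ifnar1, a chain of the type I receptor, was at 50.4 and 51.9 CPM in NDD and at 49.5, 49.4 and 52.2 CPM in WT, with overlapping groups (log2 fold change 0.02, SE 0.12, edgeR adjusted p 0.937). Ifnlr1, the chain specific to type III interferon, was at 24.7 and 22.5 CPM in NDD and 19.9 to 23.5 CPM in WT (log2 fold change 0.15, SE 0.15). Ifnar2, the signalling partner of Ifnar1, was at 9.01 and 6.98 CPM in NDD and 8.44 to 10.3 CPM in WT (log2 fold change -0.23, SE 0.22). On the length-corrected scale of the second table, the receptor chains were at 9.31 (Ifnlr1), 12.9 (Ifnar2) and 18.5 TPM (Ifnar1) as means over the 5 libraries.

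Among the sensors, the 3 with low levels in WT differed most and the abundant ones least. Ddx60, a helicase reported to assist RNA sensing, was at 5.68 and 5.57 CPM in NDD and at 1.66, 1.63 and 0.686 CPM in WT. Both NDD libraries lay above every WT library, and they were close to each other. Its log2 fold change was 2.09 (SE 0.44, adjusted p 0.239 by edgeR, DESeq2 adjusted p 0.00139), and it stayed between 1.77 and 2.28 when any 1 library was left out, but was 0.89 on log2(TPM + 1), where low levels are drawn together. Dhx58, the regulator LGP2 of the RIG-I-like receptors, was at 5.99 and 11.0 CPM in NDD and at 2.95, 4.57 and 2.53 CPM in WT, for a log2 fold change of 1.34 with an SE of 0.39 (adjusted p 0.39 by edgeR). Zbp1, which recognises left-handed nucleic acid and can trigger necroptosis, was at 2.19 and 3.61 CPM in NDD and at 1.55, 1.10 and 1.33 CPM in WT, for a log2 fold change of 1.12 with an SE of 0.39 (adjusted p 0.437 by edgeR). The groups did not overlap in any of these 3 genes, which were chosen for their difference, and 15.8% of all tested genes had no overlap with NDD higher.

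The primary RNA sensors showed smaller differences. Ddx58, which encodes RIG-I, was at 16.7 and 20.9 CPM in NDD and at 20.9, 16.9 and 19.1 CPM in WT, with overlapping groups (log2 fold change -0.01, SE 0.18, edgeR adjusted p 0.976). Ifih1, which encodes MDA5, was at 39.1 and 41.0 CPM in NDD and 26.6 to 36.2 CPM in WT, for a log2 fold change of 0.32 with an SE of 0.17 (adjusted p 0.481 by edgeR). Trim25, the ubiquitin ligase that activates RIG-I and the most abundant gene of this class, was at 101 and 106 CPM in NDD and at 90.7, 102 and 105 CPM in WT. Its log2 fold change of 0.06 (SE 0.12) was of the opposite sign on log2(TPM + 1), at -0.04, and without WT replicate 1, at -0.0050. The median log2 fold change of the 6 sensors was 0.72, with 0.52 when NDD replicate 2 was left out and 0.89 when NDD replicate 1 was.

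All 8 tested signalling factors had a log2 fold change above 0, against 49.5% of all tested genes. All 8 were highest in NDD replicate 2, against 33.9% of all tested genes. With that library left out, 5 of the 8 were above 0. Irf7, the factor that amplifies interferon production, was at 18.2 and 31.9 CPM in NDD and at 11.6, 11.6 and 6.69 CPM in WT. Every NDD value exceeded every WT value, and the log2 fold change was 1.33 with an SE of 0.34 (adjusted p 0.323 by edgeR, DESeq2 adjusted p 0.0179). Irf9, the DNA-binding part of ISGF3, was at 12.9 and 36.1 CPM in NDD and at 12.0, 12.5 and 9.74 CPM in WT. NDD replicate 1 was thus 1.13-fold and NDD replicate 2 was 3.17-fold the WT mean, and the log2 fold change of 1.10 (SE 0.41, adjusted p 0.437 by edgeR) was 0.19 without NDD replicate 2. Stat2, the partner of Irf9, was at 12.3 and 25.6 CPM in NDD and at 16.4, 13.6 and 9.26 CPM in WT, so that NDD replicate 1 lay inside the WT range. Parp14, a mono-ADP-ribosyltransferase, was at 29.9 and 38.2 CPM in NDD and at 26.8, 24.3 and 22.8 CPM in WT, for a log2 fold change of 0.47 with an SE of 0.17 (adjusted p 0.437 by edgeR).

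Irf1, a transcription factor shared with the interferon-gamma response, was the most abundant of all members per transcript length, at a mean of 47.8 TPM. It was at 60.1 and 75.8 CPM in NDD and at 58.4, 51.2 and 41.6 CPM in WT, for a log2 fold change of 0.43 with an SE of 0.19 (adjusted p 0.46 by edgeR). The partners Parp9 and Dtx3l, an ADP-ribosyltransferase and a ubiquitin ligase that work as a complex, had log2 fold changes of 0.16 and 0.34, and in both NDD replicate 1 lay inside the WT range. Their annotated loci overlap on opposite strands, at chr16:35938470-35972605 for Parp9 and chr16:35926511-35939151 for Dtx3l (mm10), so reads from the overlap could be assigned to either if strand was not used in counting. Ifi35 had a log2 fold change of 0.37 (SE 0.19) and no overlap between groups. Usp18, which removes Isg15 from proteins and dampens receptor signalling, was below the minimum of the main filter. It had 7 and 16 counts in NDD and 0, 1 and 1 counts in WT, a ratio of pooled counts of 17.0 (95% exact conditional interval 4.20 to 149, counting error only). With no filter on low counts its adjusted p was 0.284 by edgeR. The median log2 fold change of the class was 0.45, against 0.23 without NDD replicate 2.

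Of the enzymes activated by double-stranded RNA and their relative Oasl1, 5 of 5 genes besides Oas2 had log2 fold changes above 0. This compares with 48.2% of all genes that met the filter's minimum in 2 or more WT libraries. Groups did not overlap, with NDD higher, in 4 of the 5, against 15.1% of those genes. The oligoadenylate synthetases make the second messenger that activates RNase L. Oas3 was at 1.62 and 6.13 CPM in NDD and at 1.09, 0.703 and 0.772 CPM in WT, for a log2 fold change of 2.18 with an SE of 0.61 (adjusted p 0.378 by edgeR). NDD replicate 2 stood 3.79-fold above NDD replicate 1, and without it the log2 fold change was 0.94. Oasl2, an oligoadenylate synthetase-like protein, was at 7.13 and 18.7 CPM in NDD and at 4.30, 2.68 and 3.22 CPM in WT, with no overlap and NDD over WT at 1.93 on the log2 scale, with an SE of 0.45 (adjusted p 0.293 by edgeR, DESeq2 adjusted p 0.00426). It was 1.08 without NDD replicate 2. Oasl1, a relative that limits Irf7 translation, was at 10.2 and 22.1 CPM in NDD and at 6.63, 12.7 and 4.98 CPM in WT, where NDD replicate 1 lay below WT replicate 2 (log2 fold change 0.99, SE 0.49).

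Oas1a was the most abundant of the class per transcript length, with a mean of 25.8 TPM, and was at 29.9 and 36.3 CPM in NDD and at 26.5, 23.1 and 20.3 CPM in WT. The groups did not overlap, and the log2 fold change was 0.51 (SE 0.17, adjusted p 0.437 by edgeR). Oas1a shares 68.8% of its 31-base sequences with other genes, nearly all with Oas1g, so its own value is uncertain. Summing the Oas1 family left a log2 fold change of 0.52 (edgeR adjusted p 0.413). Oas2, which passed the filter only through its NDD libraries, had 14 and 12 counts in NDD and 7, 1 and 3 counts in WT. Eif2ak2, the kinase PKR that halts translation, was at 32.0 and 35.4 CPM in NDD and 24.4 to 30.4 CPM in WT, for a log2 fold change of 0.29 with an SE of 0.15 (adjusted p 0.479 by edgeR). The median log2 fold change of the 5 besides Oas2 was 0.99, and 0.37 without NDD replicate 2.

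The IFIT genes, which lie side by side on chromosome 19 and encode RNA-binding proteins that block viral translation, differed among themselves. Ifit1 (chr19:34640871-34650009, mm10) was at 3.72 and 9.60 CPM in NDD and at 0.828, 1.01 and 0.300 CPM in WT. Both NDD libraries were above every WT library, by 5.21-fold and 13.5-fold over the WT mean. Its log2 fold change was 3.22 (SE 0.62, adjusted p 0.208 by edgeR, DESeq2 adjusted p 9.7e-05), with values from 2.39 to 3.74 when any 1 library was left out. Ifit3 (chr19:34583531-34588731) was at 0.743 and 1.45 CPM in NDD and at 0.259, 0.0879 and 0.300 CPM in WT, for a log2 fold change of 2.32 with an SE of 0.65 (adjusted p 0.371 by edgeR). It shares 61.8% of its 31-base sequences with Ifit3b, and their sum gave a log2 fold change of 2.47 (edgeR adjusted p 0.27). Ifit2 (chr19:34550694-34576419) was at 1.01 and 4.78 CPM in NDD and at 1.40, 2.11 and 2.49 CPM in WT, so NDD held both the lowest and the highest library (log2 fold change 0.53, SE 0.66).

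A relative of Ifit1 in the same locus carried most of its family's counts. Ifit1bl1 had 1070 and 1009 counts in NDD and 317, 340 and 443 counts in WT, or 46.8 and 47.2 CPM against 16.4, 14.9 and 19.0 CPM. The NDD libraries were nearly equal and lay above all WT libraries, with a log2 fold change of 1.49 (SE 0.15) and an edgeR adjusted p of 0.051. Ifit1 shares 10.5% of its 31-base sequences with other genes. With Ifit1, Ifit1bl1 and Ifit1bl2 summed, the log2 fold change was 1.60 (edgeR adjusted p 0.033), a value set mainly by Ifit1bl1.

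The 12 remaining effectors split into genes that were several fold higher in NDD and genes that were not. Isg15, a ubiquitin-like protein that is attached to other proteins, was at 0.874 and 3.04 CPM in NDD and at 0.414, 0.527 and 0.686 CPM in WT. Its log2 fold change of 1.83 (SE 0.62, adjusted p 0.437 by edgeR) was 0.69 without NDD replicate 2, which stood 3.48-fold above NDD replicate 1. Herc6, the ligase that attaches Isg15 in mice, had a log2 fold change of 0.40 (SE 0.38). Rtp4, a receptor transporter protein with antiviral activity, was at 4.02 and 8.29 CPM in NDD and at 1.81, 2.68 and 1.50 CPM in WT, with no overlap (log2 fold change 1.62, SE 0.43, edgeR adjusted p 0.351, DESeq2 adjusted p 0.038). Xaf1, a binding partner of the apoptosis inhibitor XIAP, was at 2.10 and 4.54 CPM in NDD and at 1.50, 1.10 and 0.729 CPM in WT, for a log2 fold change of 1.58 with an SE of 0.50 (adjusted p 0.413 by edgeR). Without NDD replicate 2 these values were 1.02 for Rtp4 and 0.94 for Xaf1. Rsad2, which encodes viperin, had 18 and 31 counts in NDD and 7, 15 and 6 counts in WT (log2 fold change 1.38, SE 0.58). Ifi44 was below the main filter, with 9 and 25 counts in NDD and 4, 4 and 3 counts in WT, a pooled ratio of 4.57 (95% exact conditional interval 2.26 to 9.996, counting error only).

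Other effectors differed less between the genotypes, or were lower in NDD. Cmpk2, a nucleotide kinase gene that lies beside Rsad2 on chromosome 12, was at 3.10 and 4.31 CPM in NDD and 3.31 to 4.04 CPM in WT, with NDD holding the lowest and the highest value (log2 fold change -0.01, SE 0.30). Bst2, or tetherin, which holds budding viruses at the cell surface, was the most abundant effector of this class at a mean of 24.6 TPM. It was at 8.52 and 9.51 CPM in NDD and at 6.16, 9.41 and 9.82 CPM in WT, for a log2 fold change of 0.09 (SE 0.27) that was -0.09 without WT replicate 1. Samhd1, which depletes the nucleotides that viruses copy their genomes from, was at 43.5 and 29.0 CPM in NDD and 38.3 to 48.3 CPM in WT (log2 fold change -0.25, SE 0.21). Ifitm3 was at 2.27 and 3.79 CPM in NDD and at 4.71, 7.21 and 9.44 CPM in WT. All NDD values lay below all WT values. The log2 fold change was -1.23 with an SE of 0.41 (adjusted p 0.427 by edgeR), and it ranged from -1.63 to -0.92 when any 1 library was left out. It shares 20.5% of its 31-base sequences with other genes. The Mx genes, GTPases that are defective in many laboratory strains, were scarce: Mx1 had 9 and 19 counts in NDD and 8 to 11 counts in WT (log2 fold change 0.57, SE 0.56), and Mx2 had 2 and 4 counts in NDD and 1 count in each WT library, a pooled ratio of 2.96 (95% exact conditional interval 0.631 to 18.3, counting error only).

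NDD replicate 2 stood above the other libraries in most members. It was the highest of the 5 libraries in 27 of 36 tested members (75%), against 33.9% of all tested genes, and WT replicate 3 was the lowest in 18 (50%) against 26.0% of all tested genes. NDD replicate 2 exceeded NDD replicate 1 in 31 of 36 members, with a median log2 ratio of 0.58, where 6749 of all 13501 tested genes did so. Relative to the WT mean on the scale log2(CPM + 0.1), the median member was at 0.27 in NDD replicate 1, 0.79 in NDD replicate 2, and 0.04, 0.10 and -0.11 in the WT replicates. In NDD replicate 1, 27 of 36 members were above the WT mean and 6 by more than 1. In NDD replicate 2 there were 33 and 17. Oas2, Ifit3 and Rsad2, which passed the filter only through NDD, were all among the 17, and Oas2 and Ifit3 were among the 6. Of all 13501 tested genes, 6646 were above the WT mean and 466 by more than 1 in NDD replicate 1, and 6783 and 1213 in NDD replicate 2. For Irf9 the NDD libraries differed by 2.81-fold and the fitted fold between genotypes was 2.14, and for Dtx3l these were 1.68 and 1.27. In Ddx60 the NDD replicates were nearly equal, at 4.30-fold and 4.21-fold the WT mean. With NDD replicate 2 left out, the log2 fold change was 0.85 for Dhx58, 0.73 for Zbp1, 0.89 for Irf7, 0.27 for Irf1 and 0.29 for Parp14.

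**Figure D3:**
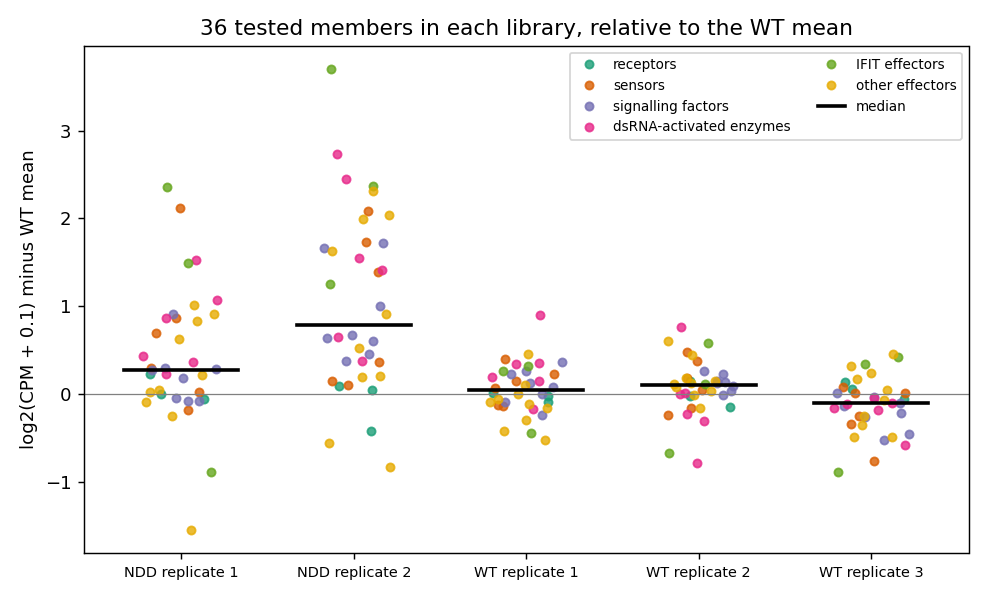
Each point is 1 of the 36 tested members in 1 library, given as log2(CPM + 0.1) minus its WT mean, coloured by role, and black bars are medians. The median is 0.79 in NDD replicate 2, 0.27 in NDD replicate 1 and between -0.11 and 0.10 in the WT replicates.

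Members with low levels differed more than abundant members. With Oas2, Ifit3 and Rsad2 left aside, 16 tested members had a mean under 10 CPM and a median log2 fold change of 1.23, and 9 of them were higher at an unadjusted p under 0.05 against 6.07% of all genes at that level. The 17 with a mean of 10 CPM or more had a median of 0.34, and 4 were higher against 6.05% of all genes at that level. Over all genes that met the filter's minimum in 2 or more WT libraries, the median size of the log2 fold change, without its sign, was 0.40 under 10 CPM and 0.21 above, so values were larger at low levels over all genes too.

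Other genes of the pathway were read from lists that held no member. Of 29 upstream genes (receptor chains, kinases, adaptors, sensors and regulators), 27 were tested, with 1 higher (3.70%, against 6.49% of all tested genes) and 1 lower (against 4.68%) at an unadjusted p under 0.05 and a median log2 fold change of 0.06. Tlr3, the endosomal sensor of double-stranded RNA, was at 42.0 and 39.6 CPM in NDD and at 34.7, 29.6 and 29.5 CPM in WT (log2 fold change 0.38, SE 0.14, edgeR adjusted p 0.437). Tmem173, which encodes STING, was at 11.6 and 22.7 CPM in NDD and at 26.1, 29.4 and 53.7 CPM in WT (log2 fold change -1.08, SE 0.42, edgeR adjusted p 0.437). Traf3, an adaptor of these sensors, was at 72.9 and 64.3 CPM in NDD and at 83.4, 76.9 and 90.7 CPM in WT (log2 fold change -0.29, SE 0.14, edgeR adjusted p 0.467). With NDD replicate 2 left out the median of this list was 0.02, and with NDD replicate 1 left out it was 0.19.

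Of 54 other interferon-stimulated genes, 44 were tested and 39 had a log2 fold change above 0, against 49.5% of all tested genes. At an unadjusted p under 0.05, 13 were higher (against 6.49%) and 1 was lower (against 4.68%). Their median was 0.49, and 0.26 without NDD replicate 2. Oas1b, Trim30a and Apol9a reached the filter's minimum in fewer than 2 WT libraries. Of the other 41, 12 were higher at an unadjusted p under 0.05 (29.3%, against 6.06% of all genes selected in the same way), 23 had groups that did not overlap with NDD higher (against 15.1%), and the median was 0.47. The 3 with the lowest p were Ifit1bl1, Trim30d and Apol9a. Trim30d, a member of the TRIM family, was at 10.2 and 11.5 CPM in NDD and at 2.64, 2.24 and 1.37 CPM in WT, for a log2 fold change of 2.38 with an SE of 0.33 (adjusted p 0.101 by edgeR). Apol9a, an apolipoprotein L gene that passed the filter only through NDD, had 16 and 20 counts in NDD and 2, 2 and 1 counts in WT. At an adjusted p under 0.05, edgeR called 0 of the 44, against 0.0889% of all tested genes.

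The guanylate-binding proteins and immunity-related GTPases, which respond chiefly to interferon-gamma, were tested for 10 of 15 genes, of which 7 had a log2 fold change above 0. Gbp3 reached the filter's minimum in fewer than 2 WT libraries, and of the other 9, 4 were higher at an unadjusted p under 0.05, against 6.06% of all genes selected in the same way. Gbp7, Gbp3 and Gbp2 had log2 fold changes of 1.85 (SE 0.32), 1.99 (SE 0.43) and 2.89 (SE 0.67), with edgeR adjusted p of 0.169, 0.265 and 0.293. The 3 below 0 were Gbp9 at -1.64 (SE 0.95), Gbp8 at -0.62 (SE 0.79) and Irgm1 at -0.08 (SE 0.15). The median of the 10 was 0.95, and that of the 9 was 0.74. Without NDD replicate 2 the list's median was 0.28, over the 11 genes that the filter then kept.

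**Figure D4:**
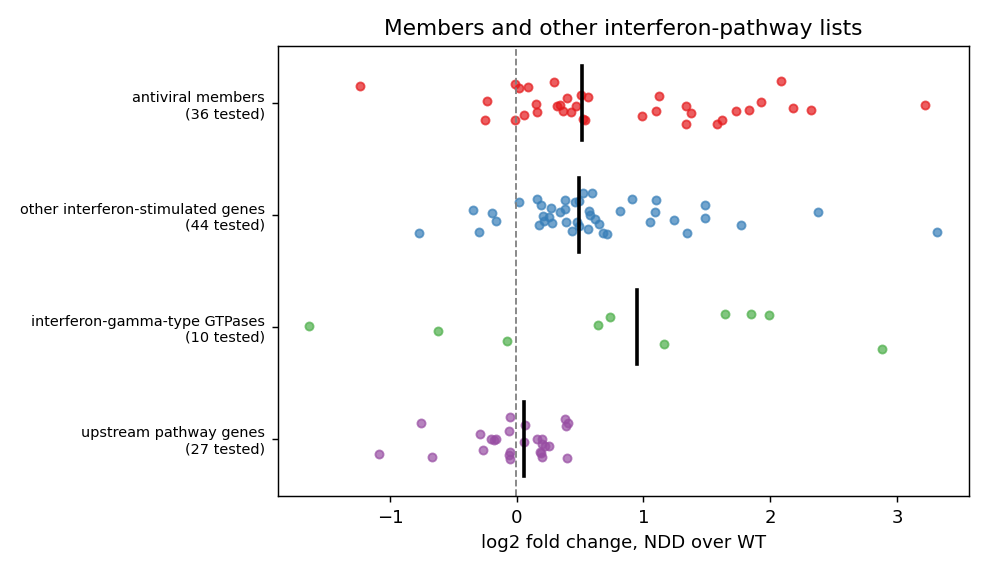
Log2 fold change of NDD over WT for the tested genes of the antiviral set and of 3 other interferon-pathway lists, with black bars at the medians and a dashed line at the median of all genes. Medians are 0.52, 0.49, 0.95 and 0.06 from top to bottom.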

How the data were processed

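RNA of mouse colon spheroids was sequenced in bulk, as 2 NDD and 3 WT libraries. The deposited tables hold, per gene and library, estimated counts that the authors gave as whole numbers without normalization, and TPM, which the authors corrected for transcript length and scaled to the same sum in each library. Per the submitters' processing notes, Bowtie2, RSEM and the build mm10 were used, with roles and versions not given in the sources used here. How reads that match several genes were shared out is not given either.

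Counts were tested with the quasi-likelihood F test of edgeR 4.0.16 (R 4.3.3, robust prior) over all 5 libraries, with TMM factors and filterByExpr (13501 of 32793 genes), and p-values adjusted by Benjamini and Hochberg over all tested genes. Positive log2 fold changes mean higher in NDD, the prior count was 0.125, and each SE was taken from the log2 fold change and the root of its F statistic. Total counts were 19192389 to 23064000 per library, and 0 columns were left unmapped. The members and lists were chosen with earlier results of these data known, so the members as a set are described by counts and medians beside those of all genes. Values in every library are given for members with an unadjusted p under 0.05 and the most abundant member of each role, and others are given by range or were picked once values had been seen. Alternatives comprised the RLE and upper-quartile normalizations, other filters, DESeq2 1.42.0, limma-voom and limma on log2(TPM + 1) or log2(TPM + 0.1) (limma 3.58.1), a prior count of 2, the replicate number as a block, summed gene families, and each library left out in turn. The code was tested on simulated counts, of which edgeR tested 13317 genes. In them 200 genes with a mean over 5 CPM were changed by 2 on the log2 scale, and edgeR recovered 96.5%. Recovery at lower levels was not simulated. Coordinates and shared 31-base sequences come from GENCODE M21 (mm10).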

Additional observations from a re-analysis of the deposited data

How the results depend on the processing

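The member median stayed above 0 under every alternative, and members above 0 numbered from 25 (of 30 kept) to 35 (of 38 kept), with 27 of 36 without NDD replicate 2. The 12 genes called over the whole table became 58 with no filter, 4 with 10 counts required in every library, 361 with DESeq2, 24 with limma-voom and 33 with the replicate block, and 0 to 1207 when 1 library was left out (0 without WT replicate 1, 1207 without NDD replicate 1). The 0 members called became 5 with DESeq2 (1.5% of all genes called higher) and 0 to 9 when 1 library was left out (9 without NDD replicate 1, where 2.96% of all genes were called higher), and 14 had an unadjusted p under 0.05 and were higher with edgeR (6.49% of all genes). The member median of 0.52 was 0.33 on log2(TPM + 1) with or without a filter and 0.36 on log2(TPM + 0.1). It was 0.40 with the replicate block and 0.28 to 0.998 when 1 library was left out. The 0.998 was without NDD replicate 1, where the filter, applied anew, kept 38 members instead of 36. That fit leaves 1 NDD library, so calls made in it rest on a spread assumed from the WT libraries. The log2 fold change of Trim25 was -0.038 on log2(TPM + 1), with or without a filter, and -0.039 on log2(TPM + 0.1), and it ranged from -0.0050 to 0.10 when 1 library was left out, where that of Bst2 ranged from -0.092 to 0.21. On log2(TPM + 1) with no filter the log2 fold change was 0.89 for Ddx60, 0.76 for Oas3, 0.69 for Ifit3 and 1.78 for Ifit1, since the added 1 shrinks differences at low levels. The cause of the other shifts was not tested. Replicate numbers are shared between groups, but deviations of same-numbered libraries correlated at 0.013 and 0.30, so the numbers were taken as names, not as pairs. With the block 0 members were called, against 0.141% of all genes called higher.

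Usp18, Mx2 and Ifi44 were below the main filter. With no filter their adjusted p by edgeR was 0.284, 0.667 and 0.446. At this depth 18 of 21 interferon genes had no count.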

Other observations

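Ifitm2, a neighbour of Ifitm3 in the same gene family that was singled out after its values were seen, was also lower in NDD, at 43.8 and 47.7 CPM against 54.1, 60.1 and 60.0 CPM in WT. The groups did not overlap, and its log2 fold change was -0.34 (SE 0.13, adjusted p 0.437 by edgeR). Ifitm1 had at most 1 count in any library, which is not detectable at this depth.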
